A study of Homo sapiens with 11 samples.

Results

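TFAP2A binding was mapped in 92-1 cells, an established line from a uveal melanoma, the cancer of the pigment cells of the eye. Some cells received only the vehicle DMSO and others FHT-1015, each for 4 h. FHT-1015 blocks SMARCA4 and SMARCA2, the alternative ATPases of the BAF chromatin remodelling complexes. Chromatin was fixed, sonicated and precipitated with an antibody sold against TFAP2A, while the sample titles name the target AP-2. Each condition had 1 TFAP2A library, from the same line, and the series held 11 libraries in all, among them 1 DMSO input and 8 libraries for H3K27ac, SMARCA4, MITF and SOX10. After rows with the same position were counted once, the DMSO library had 142667 TFAP2A peaks and the FHT-1015 library 118942, together 261609 of the 888435 narrow peaks in the 10 immunoprecipitated libraries. DMSO peaks that overlapped any FHT-1015 peak by 1 bp or more counted as retained, all other DMSO peaks as lost, and an FHT-1015 peak that touched no DMSO peak counted as FHT-1015-only. With 1 library a side there was no replicate, so the values describe this pair of libraries, no test was made, and the intervals given (95%, Wilson) cover counting error over peaks only.

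TFAP2A is a member of the AP-2 family of transcription factors, which bind as dimers to a palindromic, GC-rich sequence. In the neural crest, the embryonic source of melanocytes, TFAP2A is needed for the pigment lineage, and it shares many enhancers and promoters with MITF and SOX10, the main regulators of pigment genes. BAF complexes slide or evict nucleosomes and so hold open the DNA that such factors occupy, above all at enhancers, which lie away from gene starts and carry H3K27ac when active.

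The sequences before 7 gene starts are shown as examples. They are 3 starts where the TFAP2A peak was lost (DCT, RAB7B, FCRLA), 3 where it was retained at a lower or higher read number (CAPN3, GPR143, GPNMB) and 1 where it was gained (NGB). Each line gives the 250 bases upstream of a start in the RefSeq table of promoters on GRCh38.p14, 5′ to 3′ on the strand of the gene. Capitals mark the AP-2 core GCCNNNGGC or its variant CCTNAGG, both of which read the same on either strand.
DCT, chr13:94479683-94479932, strand -: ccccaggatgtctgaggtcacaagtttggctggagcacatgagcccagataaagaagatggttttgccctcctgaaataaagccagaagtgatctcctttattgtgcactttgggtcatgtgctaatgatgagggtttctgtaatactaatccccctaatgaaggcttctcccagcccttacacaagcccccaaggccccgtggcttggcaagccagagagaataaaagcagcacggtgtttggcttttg
RAB7B, chr1:205994458-205994707, strand -: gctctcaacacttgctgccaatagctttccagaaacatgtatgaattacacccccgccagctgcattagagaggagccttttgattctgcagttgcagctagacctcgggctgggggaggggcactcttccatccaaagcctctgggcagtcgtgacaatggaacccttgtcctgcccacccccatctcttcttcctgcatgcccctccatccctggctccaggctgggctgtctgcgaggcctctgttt
FCRLA, chr1:161706979-161707228, strand +: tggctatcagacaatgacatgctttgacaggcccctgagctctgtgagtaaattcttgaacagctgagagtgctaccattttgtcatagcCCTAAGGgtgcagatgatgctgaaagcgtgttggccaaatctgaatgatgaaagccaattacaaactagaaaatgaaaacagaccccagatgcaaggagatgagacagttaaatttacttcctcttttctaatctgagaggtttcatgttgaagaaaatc
CAPN3, chr15:42404514-42404763, strand +: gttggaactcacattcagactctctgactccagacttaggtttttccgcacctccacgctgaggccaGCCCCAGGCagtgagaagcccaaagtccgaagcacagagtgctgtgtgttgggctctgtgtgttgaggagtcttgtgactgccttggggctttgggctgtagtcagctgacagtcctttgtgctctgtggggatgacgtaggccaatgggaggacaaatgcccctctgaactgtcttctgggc
GPR143, chrX:9765848-9766097, strand -: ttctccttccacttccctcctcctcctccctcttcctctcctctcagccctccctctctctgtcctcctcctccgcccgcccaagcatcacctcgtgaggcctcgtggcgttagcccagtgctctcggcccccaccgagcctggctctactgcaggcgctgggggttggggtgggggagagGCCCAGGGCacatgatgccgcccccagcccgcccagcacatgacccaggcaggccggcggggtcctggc
GPNMB, chr7:23246525-23246774, strand +: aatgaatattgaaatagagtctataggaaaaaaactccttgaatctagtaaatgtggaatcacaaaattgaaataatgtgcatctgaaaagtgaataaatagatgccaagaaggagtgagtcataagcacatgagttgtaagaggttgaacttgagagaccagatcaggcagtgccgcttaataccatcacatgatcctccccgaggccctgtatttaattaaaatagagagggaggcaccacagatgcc
NGB, chr14:77271207-77271456, strand -: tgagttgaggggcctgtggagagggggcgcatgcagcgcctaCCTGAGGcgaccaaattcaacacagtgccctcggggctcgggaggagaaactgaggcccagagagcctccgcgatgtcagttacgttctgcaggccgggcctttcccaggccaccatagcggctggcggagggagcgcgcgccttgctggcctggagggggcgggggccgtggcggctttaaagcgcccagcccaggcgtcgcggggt
The CAPN3 and GPR143 stretches each held 1 GCCNNNGGC, beginning 183 and 69 bases before the start. FCRLA and NGB each held 1 CCTNAGG, 160 and 208 bases before it, and the stretches of DCT, RAB7B and GPNMB held neither of these forms. A longer form of the core, with 1 more base in the middle, is not marked in capitals. The stretches of DCT, RAB7B, CAPN3 and GPR143 held that longer form. A match is a run of letters, not a measured site.

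Of the DMSO peaks, 78339 (54.9%) were retained and 64328 (45.1%) were lost, and 40938 FHT-1015 peaks (34.4%) were FHT-1015-only. The last share was 21.1% with only peaks that reached a −log10 p of 10 in both lists, and 4.55% for such FHT-1015 peaks against DMSO peaks of any strength. The FHT-1015 library was slightly shallower, at 0.960 times the DMSO depth recovered from the peak values, and its median summit held 15 reads against 18 in DMSO. As a check of the label, a strong H3K27ac peak (−log10 p of at least 10 in DMSO) lay over or within 1 kb of 20 of 20 pigment genes, 11 of 12 housekeeping genes and 0 of 10 fibroblast marker genes, beside 62.1% of all protein-coding genes. The same count was 4 of 10 for endothelial, 2 of 10 for leukocyte, 5 of 10 for neuronal and 6 of 16 for epithelial marker genes.

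Gene starts kept TFAP2A almost throughout. Of 15842 protein-coding genes with a start in the RefSeq table, 11050 (69.8%) had a DMSO peak within 1 kb of a start, and 10505 of these (95.1%, interval 94.6 to 95.5) also had an FHT-1015 peak there. The peak was lost at 545 genes (4.93% of those bound) and gained at 551 of the 4792 genes without a DMSO peak (11.5%), so that 11056 genes had a start peak in FHT-1015. Lost start peaks were weak, with a median −log10 p of 6.38 in DMSO against 33.4 for kept ones, and gained start peaks had a median of 5.38 in FHT-1015. At 531 of the 545 lost starts no DMSO start peak touched any FHT-1015 peak. At 529 of the 551 gained starts no FHT-1015 start peak touched a DMSO peak, and at the other 22 the FHT-1015 peak met a DMSO peak that ended outside the 1 kb window.

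Counted by peak, 88.0% of the 15897 DMSO peaks within 1 kb of a start were retained (87.5 to 88.5). The share was 78.9% of 7320 peaks at another gene boundary, 51.4% of 61178 inside a gene and 46.6% of 58272 between genes. The last 2 classes together, over 1 kb from any listed start or gene boundary and here called away, retained 49.0% of 119450 peaks. The gap was present at every strength in DMSO. In the weakest decile of the list by −log10 p, 55.5% of start peaks and 26.0% of away peaks were retained, in the fifth decile 81.9% and 45.7%, and in the strongest 99.4% and 86.6%.

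**Figure D1:**
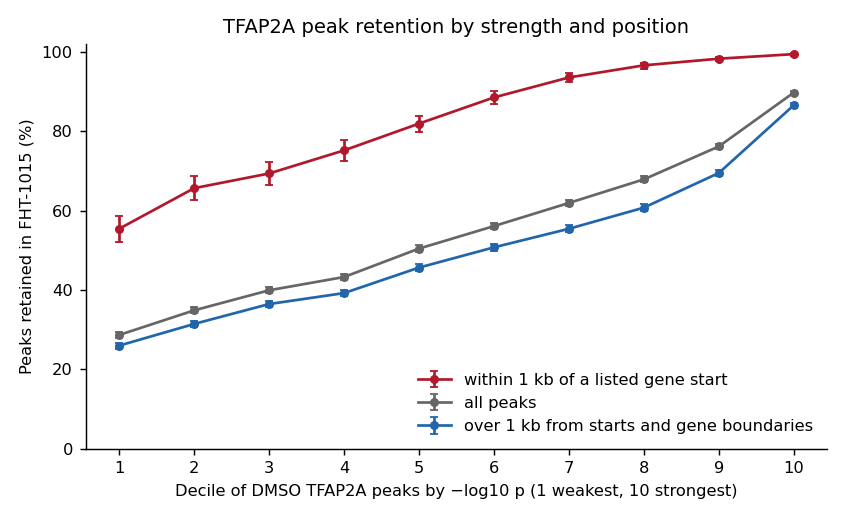
Share of DMSO TFAP2A peaks retained in FHT-1015 (y axis, %) by decile of −log10 p in DMSO (x axis), for peaks within 1 kb of a listed gene start, all peaks and peaks away from starts and boundaries; bars are 95% Wilson intervals. Start peaks lie above away peaks in each decile, from 55.5% against 26.0% in the weakest to 99.4% against 86.6% in the strongest.

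The 10 strongest lost starts belonged to genes of several tissues. The strongest was a start of RAB7B, a small GTPase of endosomes, where the peak at chr1:205993993-205994904 had 270 reads at its summit in DMSO and no peak in FHT-1015. A weak peak near the other RAB7B start touched an FHT-1015 peak outside the window. FCRLA, which encodes an Fc receptor-like protein, lost the only peak of its locus, with 184 reads at chr1:161706765-161707319. RNF186 (119 reads), a ubiquitin ligase, KIAA1755 (90 reads) and LAMB3 (87 reads), a laminin chain of epithelial basement membranes, followed. GJA5, a gap junction protein, had 80 reads, KCNA5, a potassium channel, 77, SLC17A6, a vesicular glutamate transporter, 74, and KRT8, a keratin of simple epithelia, 72. None of these 7 had an FHT-1015 peak at the start. The last of the 10, KRTAP4-7, was lost only by position: its 184-read peak overlapped an FHT-1015 peak of 45 reads that ended outside the window.

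The strongest kept start was a single peak shared by DRC8 and LOC124900416, with a −log10 p of 454 in DMSO and 410 in FHT-1015. ECI1, an enzyme of fatty acid oxidation, had 434 and 386, DDX59, an RNA helicase, 413 and 422, and CST9, a cystatin-like gene, 387 and 390. The value was lower in FHT-1015 at the first pair of genes and at ECI1, and higher at DDX59 and CST9.

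Of the 10 strongest gained starts, only NGB, which encodes neuroglobin, had a peak that touched no DMSO peak. Its FHT-1015 peak at chr14:77271239-77271756 held 40 reads, with a −log10 p of 39.4. The other 9 were RASGRP2, LOC124901232, GASK1B, ZFX, MUC2, NEUROD2, KCNT1, CLEC11A and GNG8, where a peak that overlapped a DMSO peak reached into the window. Among gained starts without any DMSO peak, CYP4F22 (21 reads), CHD2 (25 reads) and a peak shared by EFL1 and SAXO2 (32 reads) came after NGB, chosen after their values were seen. Strong gains at starts were thus few: 152 FHT-1015-only peaks that reached a −log10 p of 10 lay at a start, of 10337 FHT-1015 start peaks of that strength (1.47%).

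TFAP2A stayed at most pigment gene starts, and its read number there moved both ways. All 16 pigment genes with a listed start had a DMSO peak, and 14 kept it, against 95.1% of bound starts genome-wide. Over the bodies of the 20 pigment genes and 10 kb on either side, 121 of 215 DMSO peaks were retained (56.3%, interval 49.6 to 62.7), beside 60.3% of the 95396 peaks at all protein-coding loci. The order turned for peaks that reached a −log10 p of 10 in both lists, at 55.9% (46.2 to 65.1) and 54.2%. The start peaks were 89.2% retained (37 peaks) and the away peaks 46.7% (167 peaks).

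The enzymes of melanin synthesis differed among themselves. At the start of TYR, the first enzyme of the pathway, the summit had 63 reads in DMSO and 36 in FHT-1015. TYRP1 had 28 and 27. DCT had 67 reads in DMSO at a start inside the gene, 69.6 kb after its first listed one, and no start peak in FHT-1015. The DCT locus lost 11 of its 12 peaks, among them a 62-read peak at -6.79 kb from its first listed start, upstream of it, and the 67-read peak at chr13:94479519-94479987. Its remaining peak went from 26 to 13 reads. Of the 11 TYR peaks 4 were retained, and the upstream peak at -1.87 kb went from 70 to 20 reads. TYRP1 retained 6 of 7.

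At genes for melanosome structure and transport of solutes, the MLANA start peak (14 reads) was lost, and MLANA's upstream peak at -4.53 kb went from 102 to 30 reads. MLANA encodes a protein of melanosome formation, and its locus retained 2 of 4 peaks. GPR143, a receptor of the melanosome, went from 68 to 42 reads at its start, SLC24A5, an ion exchanger, from 67 to 30, and OCA2, a melanosomal transporter, from 90 to 109. PMEL, the fibril protein of melanosomes, has no listed start and retained 5 of 7 peaks. In the PMEL locus the peak at chr12:55970491-55971154 went from 156 to 22 reads while the peak at chr12:55965773-55967089 went from 109 to 130. SLC45A2, a transporter, retained 4 of 5 peaks.

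Among the remaining pigment genes CAPN3, a calcium-dependent protease, went from 268 to 68 reads at a start inside the gene. At another CAPN3 start inside the gene the peak went from 43 to 15 reads. TRPM1, a cation channel, went from 234 to 135 reads, also at a start inside the gene. MC1R, the receptor for melanocyte-stimulating hormone, went from 257 to 165. S100A1, a calcium-binding protein, went from a −log10 p of 302 to 171 in the FHT-1015 peak that spans the DMSO summit. A second FHT-1015 peak under that DMSO peak, nearer the start, had 18.4. GPNMB, a glycoprotein of melanosomes, had 213 and 244 reads. The genes that carry melanosomes along the cytoskeleton differed less at their strongest DMSO start peak, apart from RAB27A. RAB27A had 48 and 81 reads, MYO5A 32 and 36, MLPH 17 and 19 and MREG 164 and 157. At another start of MREG a weaker peak went from 28 to 49 reads. RAB38, a GTPase that sorts melanosomal cargo, had the most peaks of the list, 32, of which 18 were retained. BACE2, a protease that cuts PMEL, retained 7 of 13.

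**Figure D2:**
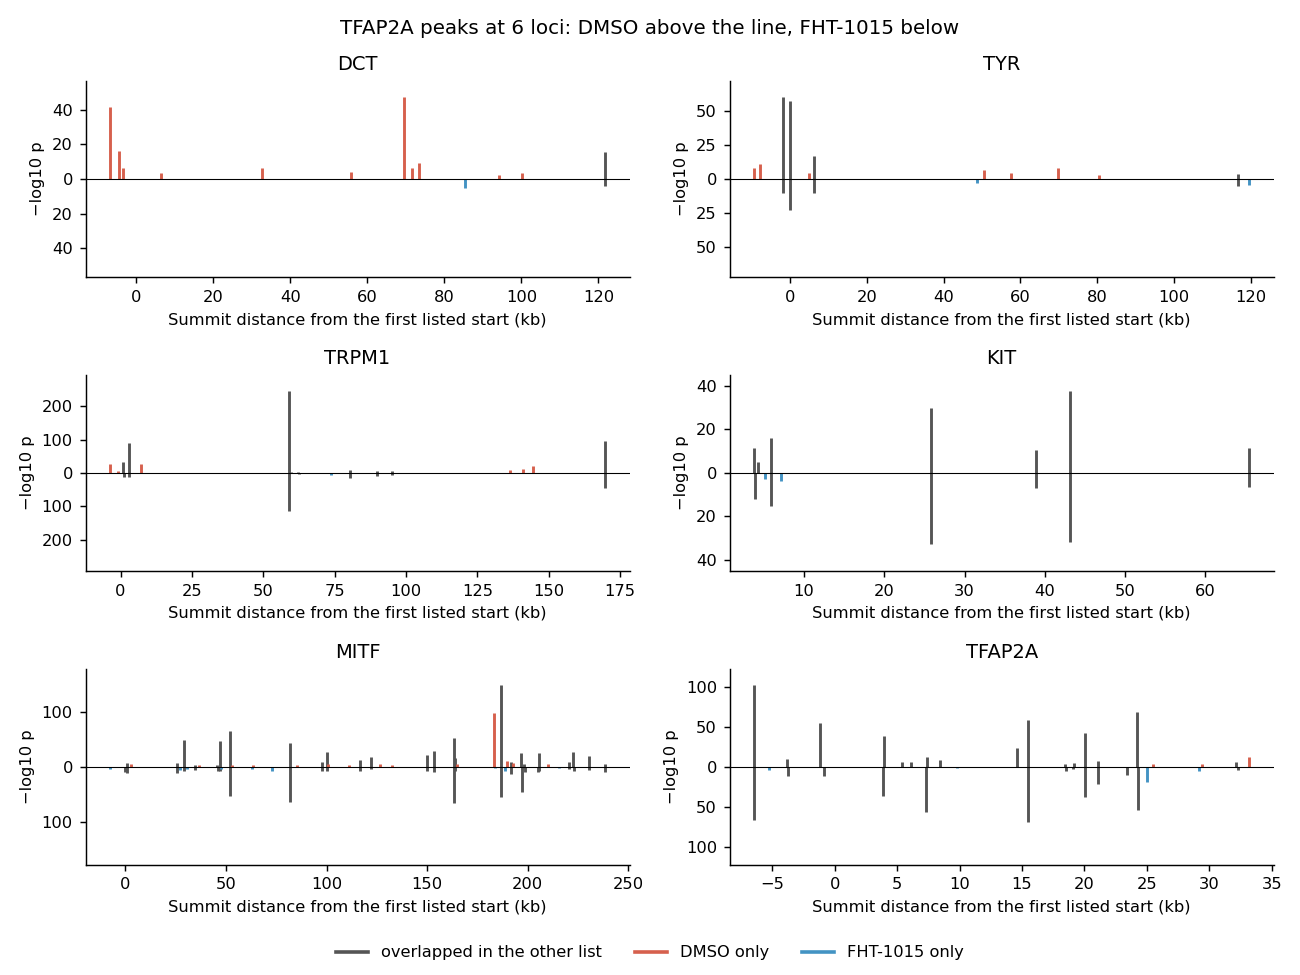
TFAP2A peaks at DCT, TYR, TRPM1, KIT, MITF and TFAP2A: each line is a peak at its summit's distance from the first listed start (x axis, kb, positive in the direction of transcription), with its −log10 p (y axis) upward for DMSO and downward for FHT-1015. Grey peaks overlap a peak of the other list, and coloured peaks do not: 11 of 12 DMSO peaks at DCT, 7 of 11 at TYR, 6 of 15 at TRPM1, 0 of 7 at KIT, 14 of 39 at MITF and 3 of 19 at TFAP2A.

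With peaks of any strength, the regulators of the lineage were close to genes at large. All 5 bound starts of 8 listed were kept, beside 95.1% genome-wide, and 116 of 194 peaks at the 10 loci were retained (59.8%, interval 52.8 to 66.4), beside 60.3% at all loci. With only peaks that reached a −log10 p of 10 in both lists their share was lower, at 43.96% (34.2 to 54.19), beside 54.21% at all loci. At MITF, the master regulator of pigment genes, the strongest start peak went from 39 to 57 reads, and 25 of 39 peaks were retained. A 92-read MITF peak 183 kb after the first listed start was lost, and its neighbour at 187 kb went from 136 to 68 reads. PAX3, which acts upstream of MITF, had 41 and 48 reads at its start and retained 22 of 30 peaks. SOX5 retained 39 of 61 and TFEB, a relative of MITF, 11 of 18. SOX10 retained 4 of 14: peaks of 81 and 55 reads at chr22:37967736-37968726 and chr22:37966166-37966528 were lost, while the strongest, at chr22:37982863-37984894, had 131 reads in DMSO and 126 in FHT-1015. None of the 10 regulators had more FHT-1015 peaks than DMSO peaks, and 9 had fewer, while of the 20037 protein-coding genes 6766 had more and 7769 fewer.

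Genes of the AP-2 family and of the CITED and KCTD proteins, which act on AP-2 factors, kept more of their peaks. Of 77 peaks, 61 were retained (79.2%, interval 68.9 to 86.8), beside 60.3% at all loci. The 5 bound starts of 8 listed were kept, beside 95.1% of bound starts genome-wide. TFAP2A itself retained 16 of 19 peaks. Its strongest start peak, at -1.13 kb from the first listed start, had 65 reads in DMSO and lay over an FHT-1015 peak of 23 reads, whereas the peak 7.39 kb inside the gene, at 32 reads in DMSO, became part of a wide FHT-1015 peak of 88 reads. KCTD1, an inhibitor of AP-2, went from 139 to 95 reads at its start, CITED1, a coactivator known from melanocytes, from 61 to 27, and CITED2, a coactivator of TFAP2 factors, from 87 to 104. TFAP2E had 9 and 17 reads, CITED4 gained a 12-read start peak, KCTD15 retained 11 of 12 peaks, TFAP2C 3 of 3 and TFAP2D 2 of 5. TFAP2B had 0 peaks in DMSO and 1 in FHT-1015.

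Receptors and signalling genes of uveal melanoma lay on both sides of the 60.3% at all loci. Of bound starts genome-wide, 95.1% were kept. Growth receptors of melanocytes retained 108 of 199 (54.3%, interval 47.3 to 61.0) and kept 9 of 10 bound starts. KIT, the receptor for stem cell factor, named here after its values were seen, retained 7 of 7, with 36 and 38 reads at the peak 25.8 kb into the gene and 44 and 39 at the peak 43.2 kb into it. IGF1R retained 23 of 45, NTRK2 9 of 25, FGFR1 11 of 16 and EDNRB, the endothelin receptor of melanoblasts, 8 of 15. The EDNRB start peak went from 203 to 152 reads. The Gαq pathway, which carries the driver mutations of most uveal melanomas, retained 155 of 282 (54.96%, interval 49.1 to 60.7) and all 9 bound starts. With only peaks that reached a −log10 p of 10 in both lists, its share was 41.8% (33.8 to 50.3), beside 54.2% at all loci. PRKCE retained 33 of 61, PRKCA 14 of 41, PLCB4 15 of 36 and TRIO 23 of 34. The genes for feedback on MAP kinase signalling, downstream, retained 81 of 112 (72.3%, interval 63.4 to 79.8) and kept all 9 bound starts. There SPRED2 had 115 and 103 reads at its start and SPRY4 149 and 80, while ETV4 and CCND1 each retained 8 peaks, of 14 and 13.

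Across the 38 gene lists the retained share ran from 38.2% to 86.0%. Among the highest were lists of genes active in every cell, and the HOX genes of body patterning. Cytosolic ribosomal protein genes retained 306 of 356 peaks (86.0%, interval 82.0 to 89.2) and kept 58 of 59 bound starts. HOX genes retained 82.98% of 94 peaks, replication-dependent histone genes 82.4% of 85, cholesterol synthesis genes 80.2% of 111, housekeeping genes 77.8% of 63 and mitochondrial ribosomal protein genes 77.5% of 324. Zinc finger ZNF genes retained 71.8% of 1689 peaks, kept 342 of 346 bound starts and gained 23. Subunits of the BAF complexes retained 70.4% of 287 peaks, among them 31 of 54 at ARID1B and 15 of 18 at ARID1A. In MVD and LSS, enzymes of sterol synthesis, the start peaks had 144 and 174 reads and 101 and 71 reads. Of these lists ribosomal, mitochondrial ribosomal and histone genes also had the larger parts of their peaks at starts, 37.1%, 43.2% and 55.3%, against 16.7% over all genes. The others had from 23.3% (BAF subunits) to 33.3% (ZNF genes) there. Away peaks alone were 85.7% retained at HOX genes, the highest of these lists, and 57.2% at ZNF genes, the lowest. They were 72.1% retained at cytosolic ribosomal protein genes and 59.3% at histone genes, against 52.3% over all genes.

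**Figure D3:**
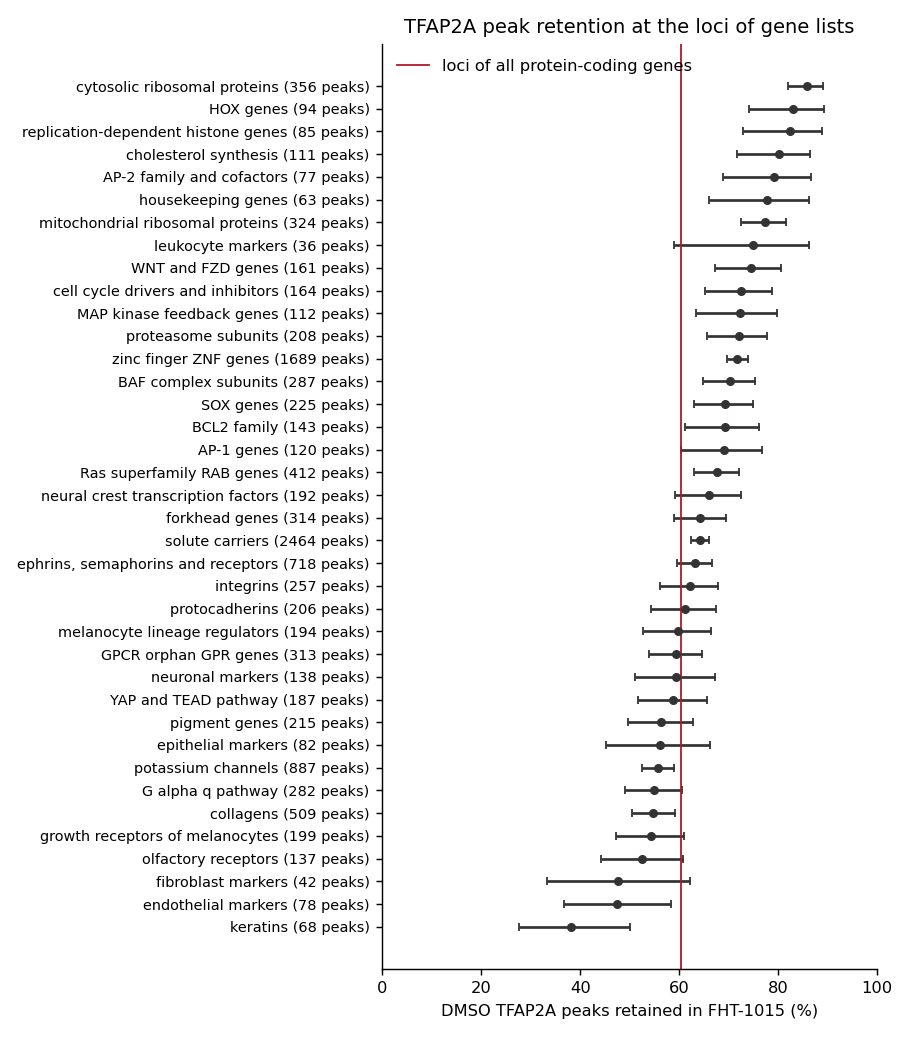
Share of DMSO TFAP2A peaks retained in FHT-1015 (x axis, %) over gene bodies and 10 kb on either side, for 38 gene lists with the number of distinct DMSO peaks; bars are 95% Wilson intervals and the line is the share at all protein-coding loci (60.3%). Ribosomal protein genes lie highest (86.0%) and keratins lowest (38.2%), and pigment genes (56.3%) lie just left of the line with an interval that spans it; with strong peaks only, their share is above that of all loci (55.9% and 54.2%).

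The 3 lowest shares were at keratins and at endothelial and fibroblast marker genes. Keratins retained 26 of 68 peaks (38.2%, interval 27.6 to 50.1) and kept 1 of 3 bound starts. With only peaks that reached a −log10 p of 10 in both lists, the keratin share was 20.0% (8.07 to 41.6). KRT8 retained 1 of 9 and KRT80 4 of 8. Endothelial marker genes retained 47.4% of 78 peaks, with 11 of 30 at ERG and 7 of 13 at VWF. Fibroblast marker genes retained 47.6% of 42 peaks, collagens 54.8% of 509 and potassium channels 55.8% of 887, with 14 of 38 at KCNMA1. Olfactory receptor genes were seldom bound: 13 of 314 listed starts had a DMSO peak, of which 6 were kept and 7 lost. Marker genes of other tissues were not low throughout: leukocyte loci retained 27 of 36 peaks and neuronal ones 59.4% of 138, beside 60.3% at all loci. In gene bodies alone the leukocyte share was 60.0% (31.3 to 83.2), beside 59.9% for all genes. Of 5 listed leukocyte marker starts 0 had a DMSO peak, so the 9 start peaks among the 36 lay at starts of other genes. RBFOX3, a neuronal splicing factor, had 57 peaks in DMSO and 98 in FHT-1015, of which 65 were FHT-1015-only. WNT7B had 21 peaks in DMSO, of which 18 were retained, and 39 in FHT-1015.

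Single loci spanned nearly the whole range. Among 3670 genes with at least 10 DMSO peaks, the median gene retained 62.5% (quartiles 46.7% and 80.0%), 203 retained all and 0 retained none. The lowest was RAPGEF5, an exchange factor for RAP GTPases, with 1 of 16 peaks retained (6.25%). DOCK2, an exchange factor of leukocytes, retained 2 of 28, MAMDC2 1 of 14, and CSRNP3 and ZMAT4 1 of 13 each. DCT retained 1 of 12, BANK1, a scaffold protein of B cells, 1 of 11 and SLAMF1, a lymphocyte receptor, 1 of 10. At MAMDC2 and DCT the loss included the start peak, of 35 and 67 reads. At these 8 loci, chosen for their low TFAP2A retention, SOX10 peaks went from between 6 and 17 in DMSO to 0 or 1 in FHT-1015. The whole SOX10 list also shrank, from 103379 to 33268 peaks. The highest were NACC2, a transcriptional repressor, with 27 of 27 retained and 43 FHT-1015 peaks, PLEC, the cytoskeletal linker plectin, with 24, GPSM1 with 20, MIDN with 19, and SAMD11, MICALL2, FBXL16 and METRN with 18 each. Their SOX10 peaks numbered between 3 and 26 in DMSO and between 4 and 12 in FHT-1015.

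The 5 strongest lost peaks were inside CTDSPL, inside ADGRG1 and nearest to GPC1, MTSS1 and ABCC12, and all 5 had SOX10, SMARCA4 and H3K27ac peaks in DMSO and no SOX10 peak in FHT-1015. SOX10 was the rule at that strength, with 10091 away peaks of the strongest decile having it and 405 lacking it. ADGRG1, an adhesion receptor of neural and melanoma cells, retained 6 of 18 peaks, and a 99-read peak 17.9 kb into the gene was lost besides the strongest one. CTDSPL, a phosphatase, retained 9 of 20. GPC1 itself retained 12 of 12, the lost peak lying 95419 bp away. Among the 19027 lost peaks that reached a −log10 p of 10, 60.0% had a SOX10 peak in DMSO and 1.57% in FHT-1015. Of the 47818 retained peaks of that strength, 67.97% had SOX10 in DMSO and 25.2% in FHT-1015, and 20.98% were at a start, against 1.88% of the lost ones. Among away peaks alone SOX10 lay in DMSO at 60.1% of the lost and 61.5% of the retained strong peaks, and in FHT-1015 at 1.55% and 16.3%. The DMSO shares of lost and retained strong away peaks were 52.3% and 56.6% for SMARCA4, 42.6% and 44.4% for MITF and 32.1% and 42.4% for H3K27ac.

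Whether other factors marked the peaks that were lost depended on strength and position. In the whole list, 64.1% of peaks with a SOX10 peak in DMSO were retained and 47.9% of those lacking one. The shares were 62.6% against 51.7% for MITF and 69.6% against 48.1% for H3K27ac. Bound sites were stronger, however, with a median −log10 p of 22.1 with H3K27ac and 7.27 without. Among away peaks of equal decile the order turned. Away peaks with SOX10 were retained less often than those without in 10 of 10 deciles, by 3.20 to 15.2 percentage points, and the same held for SMARCA4 in 10 of 10 deciles, by 3.48 to 15.0. With MITF they were retained less often in 9 of 10 deciles, by up to 19.7 points, and more often in the strongest, by 3.87. With H3K27ac they were lower in 8 of 10 deciles, by up to 10.6 points, and 7.87 points higher in the strongest. Peaks within the strongest decile still differed in strength. Their median −log10 p was 112.7 with H3K27ac and 93.4 without, and 112.4 with MITF and 91.4 without. In the eighth decile 54.0% of 6254 away peaks with SOX10 were retained (52.7 to 55.2) and 69.2% of 5041 without (67.9 to 70.5).

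**Figure D4:**
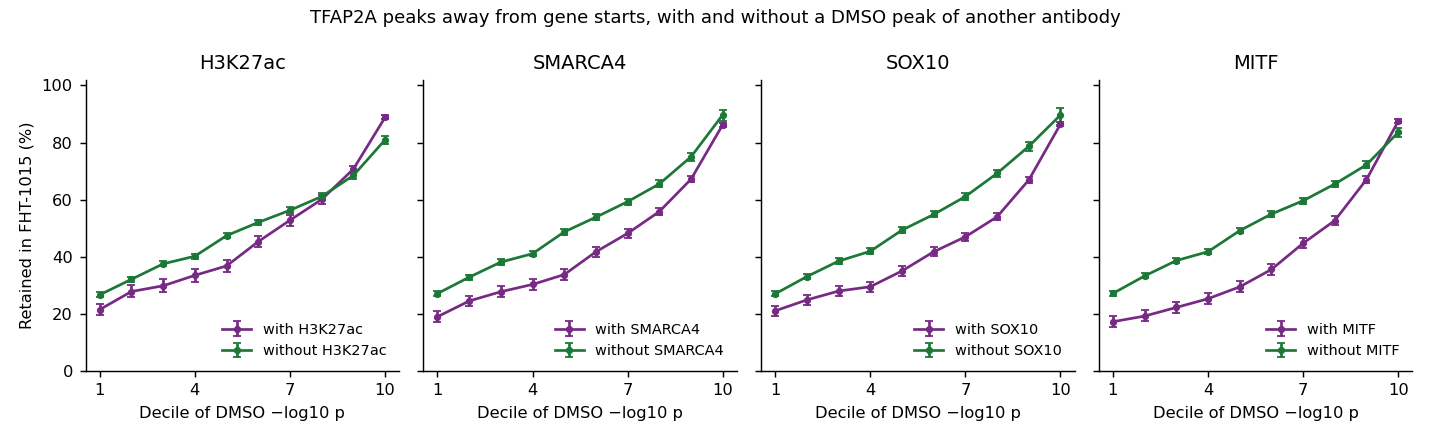
Share of away TFAP2A DMSO peaks retained in FHT-1015 (y axis, %) by decile of −log10 p in DMSO (x axis), with and without an overlapping DMSO peak of H3K27ac, SMARCA4, SOX10 or MITF; bars are 95% Wilson intervals. Peaks with SOX10 or SMARCA4 lie below those without in all 10 deciles, and those with H3K27ac or MITF lie above only in the strongest deciles.

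Combinations of the other factors spread the share further. Of 24101 TFAP2A peaks with all 4 others in DMSO, 72.2% were retained, 96.2% of those at starts and 63.0% of those away. Of 63082 peaks with none of them, 46.8% were retained, 66.3% at starts and 45.4% away. The lowest share was at the 3996 peaks with MITF alone (35.5%), followed by the 563 with H3K27ac and MITF (41.2%). At away peaks with SMARCA4, SOX10 and MITF but no H3K27ac, 47.6% of 5305 were retained.

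Where TFAP2A was lost, the other factors were lost more often too. SOX10 was kept at 35.7% of the retained TFAP2A peaks that had it in DMSO and at 4.99% of the lost ones. MITF was kept at 61.1% and 28.0%, SMARCA4 at 78.2% and 44.5% and H3K27ac at 86.2% and 55.2%. Among away peaks alone the shares were 25.6% and 4.49% for SOX10, 53.4% and 27.2% for MITF, 69.7% and 42.3% for SMARCA4 and 78.1% and 52.3% for H3K27ac. The SOX10 list itself went from 103379 peaks in DMSO to 33268 in FHT-1015, and most retained TFAP2A peaks that had SOX10 in DMSO had no SOX10 peak in FHT-1015. Each antibody had 1 library per condition, and the part of shared chromatin or peak strength in this was not tested.

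Read numbers of retained peaks differed by position. Over all retained peaks the median ratio of FHT-1015 to DMSO summit reads at equal depth was 1.12 at starts and 0.858 away, and 23.1% of the away peaks were below 50% of their DMSO reads. It was 0.772 with SMARCA4 and 1.04 without, and 0.834 with SOX10 and 1.04 without. Among retained peaks that reached a −log10 p of 10 in DMSO, the median summit at a start had 50 reads in DMSO and 51 in FHT-1015, and the median ratio was 1.06. At away peaks the median went from 41 to 23 reads, the median ratio was 0.601, and 39.4% of 34031 peaks were below 50% of their DMSO reads. The median ratio of away peaks was 0.473 with SMARCA4 and 0.758 without, 0.502 with and 0.721 without SOX10, 0.476 and 0.689 for MITF, and 0.521 and 0.654 for H3K27ac. These peaks were chosen for their strength in DMSO and for having an FHT-1015 peak, so the ratios are not free of that choice. Peaks with another factor also had more DMSO reads, 62 against 26 at the median for SOX10.

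FHT-1015-only peaks were mostly weak. They made up 13.9% of FHT-1015 peaks at starts, 29.3% of those at other boundaries, 38.9% inside genes and 37.6% between genes. Of FHT-1015 peaks with an H3K27ac peak in the same condition 9.51% were FHT-1015-only, against 43.5% of those without. Only 1828 had a −log10 p of at least 10, and of these 10.9% carried H3K27ac, 13.4% SMARCA4, 6.67% SOX10 and 6.07% MITF in FHT-1015. Over all FHT-1015 peaks the shares were 26.7%, 30.7%, 13.7% and 17.3%. The 5 strongest were inside TBC1D23 (53 reads), at NGB, inside RBFOX3 (38 reads) and CHLSN (35 reads), and nearest to TACC3 (32 reads). The one in TBC1D23 had peaks of all 4 other antibodies in both conditions, and the other 4 peaks had none in either.

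Chromosomes differed in how many peaks they held after FHT-1015. Chromosome 19 had 5216 peaks in DMSO and 6324 in FHT-1015, a ratio of 1.21, and retained 76.2%. Chromosome 22 had a ratio of 1.0996, chromosome 16 of 1.01 and chromosome 17 of 0.987, and they retained 66.4%, 63.6% and 65.6%. Chromosome X had the lowest ratio, 0.632, and retained 44.6%. The difference was also present among away peaks alone, of which 70.1% were retained on chromosome 19 and 37.5% on chromosome X. At starts these chromosomes were close, at 89.3% and 83.2%. On chromosome 19, 34.3% of DMSO peaks lay at a start or boundary. The part of base composition in this was not tested.

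**Figure D5:**
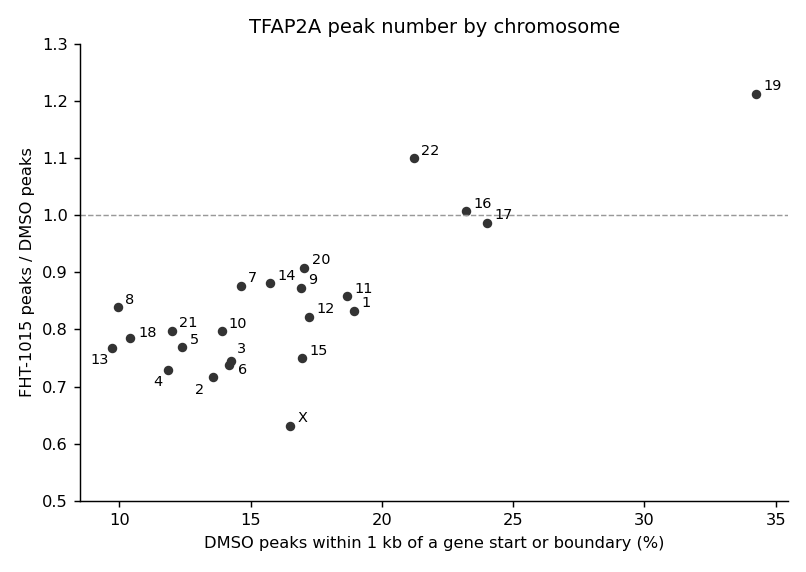
Ratio of FHT-1015 to DMSO TFAP2A peak number (y axis) against the share of DMSO peaks within 1 kb of a listed gene start or gene boundary (x axis, %), 1 point per chromosome; the dashed line is a ratio of 1. Chromosomes 19, 22 and 16 lie above the line (1.21, 1.0996 and 1.01) and chromosome X lowest (0.632); for chromosome 8 the x value counts boundaries only.

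The AP-2 core, like other GC-rich strings, was most common where TFAP2A was kept. GCCNNNGGC was present in 27.3% of all 22055 RefSeq windows from 250 bases before to 50 after a start. Here kept, lost and gained were called by peaks that overlapped the window itself, not by the 1 kb rule used for starts above. The windows of KRT8, a lost start by that rule, and CST9, a kept one, thus count as without a peak. GCCNNNGGC was in 36.5% of 11514 kept windows, 24.8% of 927 lost, 24.8% of 916 gained and 15.8% of 8698 without a peak. The median GC content of these classes was 67.0%, 60.7%, 62.7% and 53.0%, so the classes differ in base composition. GC-rich strings searched for comparison, on both strands, had as wide a gap or wider: GCCNNNGGG was in 53.1% of kept and 38.3% of lost windows (41.7% of all) and CCGCCC in 75.03% and 53.5% (56.3% of all). Within bands of GC content the core was more frequent in bound windows than in others: 24.2% against 19.4% between 55% and 65% GC, and 42.6% against 34.4% between 65% and 75%. In the first of these bands CCGCCC was in 62.7% against 41.1% and GCCNNNGGG in 40.3% against 35.9%. Windows with 0 copies were bound in 50.003% of cases, with 1 copy in 71.9%, with 2 in 77.5% and with 3 or more in 80.9%. Once bound, the share kept changed little with copies, at 91.3%, 94.7%, 95.3% and 94.0%. CCTNAGG, which can share bases with the core, was in 12.4% of kept and 12.2% of lost windows, and in 11.5% of all. At single pigment gene starts, reads moved both ways with the core and without it. With the core, CAPN3 went from 268 to 68 reads and GPR143 from 68 to 42, while OCA2 went from 90 to 109. Without it, GPNMB went from 213 to 244, while TYR went from 63 to 36.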

How the data were processed

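Peak lists of chromatin immunoprecipitation sequencing were used, 1 narrow list for each library. The authors' tools were BWA, SAMtools, Picard and MACS2 and the build hg38, per the submitters' processing notes, with no settings given there. For every peak the authors deposited a fold enrichment (a ratio over background), a −log10 p and a −log10 q; the lowest −log10 p was 2.004 in DMSO and 2.01 in FHT-1015. Groups came from the sample titles. Summit reads were recovered by assuming a fold of (x + 1)/(λ + 1) and a Poisson p; x was whole within 0.002 for 99.9993% (DMSO) and 99.9966% (FHT-1015) of the 142394 and 118819 peaks low enough in p for this, and no reads are given for the others. Relative depth is the lowest recovered background divided by the shortest peak width, compared between libraries. Gene extents and starts are RefSeq, GRCh38.p14; 22175 starts of 15842 of 20037 protein-coding genes were matched by gene identifier. A gene locus is the body with 10 kb on either side. Overlaps were computed in Python 3.11.15 with numpy 2.4.6 and pandas 2.3.3 and tested on simulated peaks. Named genes are the 10 lost, 5 kept and 10 gained starts with the highest −log10 p, the 8 loci at either end among those with at least 10 DMSO peaks, the 5 strongest lost and FHT-1015-only peaks, all members of 3 lists (pigment genes, lineage regulators, AP-2 family) and up to 4 members with the most peaks of others. Of the gene lists, members and rules, all were chosen with earlier results of these data known. Alternatives changed the strength threshold, overlap, start window and motif. Motifs under summits were not analysed here.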

Additional observations from a re-analysis of the deposited data

How the results depend on the processing

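No paired analysis was possible because each condition had 1 TFAP2A library, and for the same reason no replicate could be left out. The FHT-1015 to DMSO peak number ratio (0.834) was 0.6004 when both lists held only peaks that reached a −log10 p of 10, 0.808 with q under 0.05 and 0.596 with a fold of at least 5. In the same order the retained share (54.9%) was 47.7%, 54.5% and 44.9%, and the FHT-1015-only share (34.4%) was 21.1%, 32.9% and 25.1%. With lists of equal number, 50% of the peak covered, or summits within 200 bp, the retained share was 59.8%, 49.4% and 50.04%, and the FHT-1015-only share 40.004%, 39.2% and 39.96%. Of DMSO peaks that strong, 71.5% touched an FHT-1015 peak of any strength.

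The start minus away difference (38.98 percentage points) was 49.6 for strong peaks, 37.1 with equal lists, 41.1 with coverage, 27.2 with summits, 35.8 with a 2.5 kb window and 30.8 averaged over deciles. It was 36.1 for either gene boundary against the rest, an alternative chosen after seeing the data. The with minus without difference, for strong peaks, summits and away peaks in turn, was 27.5, 15.6 and 12.6 for H3K27ac (21.5 as reported), 13.9, 12.3 and 10.7 for SMARCA4 (16.5), 18.6, 13.3 and 9.11 for SOX10 (16.3), and 11.8, 9.04 and 6.48 for MITF (10.97). Averaged over deciles it was 7.62 for H3K27ac and turned to -2.57 for SMARCA4, -3.27 for SOX10 and -7.40 for MITF. Averaged over deciles of away peaks, also chosen after seeing the data, it was -2.77, -10.1, -11.96 and -12.2 for H3K27ac, SMARCA4, SOX10 and MITF. Peaks with another factor were stronger, and deciles held strength only roughly level. In the strongest decile, away peaks with SOX10 had a median −log10 p of 108 and those without 77.8. The part of strength in these turns was not tested. The counts of kept, lost and gained starts stayed within 1.5 times. The kept minus lost difference in the AP-2 core (11.6 points) was 0.178 for CCTNAGG, added after seeing the data, and the cause was not tested. Of 78 other values, 59 moved by less than their interval and 19 by more. Depth limits weak peaks most: a lost peak means one not called at this depth.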
